A study of Mus musculus with 8 samples.

Results

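The transcripts of 10 genes that p53 is known to induce were followed in single myeloid cells from the tumors and the blood of mice that had received local irradiation (IR) or not. The genes were Cdkn1a, Mdm2, Ccng1, Phlda3, Bax, Trp53inp1, Eda2r, Aen, Zmat3 and Bbc3, chosen by name as a list of p53 targets, out of 32285 genes in the count tables. All 10 had at least 1 unique molecular identifier (UMI, 1 per captured transcript) in a kept tumor cell of each tumor library, and 9 had one in blood, where Eda2r had none.

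The mice carried MC38 tumors, a mouse colon carcinoma line grown under the skin, and the irradiated groups received 20 Gy in a single dose, 3 days before collection. Cells were sorted as CD45+CD11b+Ly6Chi, the gate of monocytic myeloid cells. The groups were Ythdf2 fl/fl mice (WT) and Lyz2-Cre; Ythdf2 fl/fl mice (cKO), in which the Cre gene sits in the Lyz2 locus of myeloid cells; both genotypes carried the floxed Ythdf2 alleles, the untreated groups included. By the study's methods the mice were C57BL/6J, 8 to 10 weeks old, of both sexes, and each genotype, tissue and treatment was a pool of 5 mice. WT and cKO cells carried different antibody hashtags and were mixed into 1 library each for tumor control, tumor IR, blood control and blood IR. Each group was therefore 1 pool, without replicates, so no test of a treatment or a genotype was possible. The intervals given are 95% intervals (exact Poisson, binomial or Clopper-Pearson) and cover counting error only.

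p53 is a transcription factor that is held at a low level by Mdm2 and accumulates after DNA damage. Its targets halt the cell cycle, limit p53 itself, repair damage or kill the cell, and in myeloid cells Cdkn1a is also known to respond to differentiation and cytokines without p53. Of the genes followed, Cdkn1a encodes p21, an inhibitor of cyclin-dependent kinases. Mdm2, the ubiquitin ligase of p53, and Ccng1, cyclin G1, act in feedback on p53. Bax forms pores in the mitochondrial membrane and Bbc3 (Puma) is a BH3-only activator of that step, Aen is a nuclease of apoptosis, and Trp53inp1 a stress protein that acts with p53. Phlda3 binds phosphoinositides and restrains Akt, Eda2r is a receptor of the TNF receptor family, and Zmat3 an RNA-binding zinc finger protein.

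In the mouse genome build GRCm38 the genes lay on 8 chromosomes. Cdkn1a was at chr17:29090976-29100727 on the plus strand, Mdm2 at chr10:117688875-117710758 on the minus strand, and Ccng1 at chr11:40748552-40755311 on the minus strand. Phlda3 was at chr1:135766119-135769136 on the plus strand, Bax at chr7:45461697-45466898 on the minus strand, and Trp53inp1 at chr4:11156431-11174379 on the plus strand. Eda2r was at chrX:97333840-97377216 on the minus strand, Aen at chr7:78895854-78911209 on the plus strand, Zmat3 at chr3:32334792-32366014 on the minus strand and Bbc3 at chr7:16308393-16318205 on the plus strand. The files hold a UMI count per whole gene, so the exon it came from is not known.

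The start windows of the genes are shown because p53 binds a named decamer of DNA, and a pair of such decamers makes a full response element. The windows were those of RefSeq (GRCm38.p6), 250 bases before to 50 after a start. 8 of the 10 genes were matched to a window, all but Trp53inp1 and Zmat3. The decamer, which reads alike on both strands, was found in the windows of 5 genes. By window it was in 6 of the 12 windows of the members and in 8.36% of all 32851 windows. Some genes had more than 1 window, and those of Aen overlapped and held the same match. A pair with a spacer of at most 13 bases was found in Cdkn1a alone among the members, and in 0.0731% of all windows. Below, each window runs 5′ to 3′ on the gene's own strand, with matches in capitals. In Cdkn1a (chr17:29090729-29091028) the matches began 73 and 51 bases before the start, 12 bases apart. Mdm2 (chr10:117710709-117711008) held 1 match, 186 bases before the start, and Phlda3 (chr1:135765835-135766134) held no whole match. The Phlda3 window ended in letters that fit the start of the decamer, so a match across its edge could not be seen.
Cdkn1a: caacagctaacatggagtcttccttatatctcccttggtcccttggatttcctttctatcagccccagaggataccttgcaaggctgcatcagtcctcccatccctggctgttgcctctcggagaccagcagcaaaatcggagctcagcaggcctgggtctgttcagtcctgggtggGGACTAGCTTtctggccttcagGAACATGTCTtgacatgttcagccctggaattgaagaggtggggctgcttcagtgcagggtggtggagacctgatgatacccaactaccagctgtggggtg
Mdm2: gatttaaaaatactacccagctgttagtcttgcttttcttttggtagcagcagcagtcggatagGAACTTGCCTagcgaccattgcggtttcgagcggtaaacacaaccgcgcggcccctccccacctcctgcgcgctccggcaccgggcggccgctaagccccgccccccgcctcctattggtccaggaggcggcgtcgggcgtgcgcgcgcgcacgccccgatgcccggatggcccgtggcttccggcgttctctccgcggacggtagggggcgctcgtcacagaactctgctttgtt
Phlda3: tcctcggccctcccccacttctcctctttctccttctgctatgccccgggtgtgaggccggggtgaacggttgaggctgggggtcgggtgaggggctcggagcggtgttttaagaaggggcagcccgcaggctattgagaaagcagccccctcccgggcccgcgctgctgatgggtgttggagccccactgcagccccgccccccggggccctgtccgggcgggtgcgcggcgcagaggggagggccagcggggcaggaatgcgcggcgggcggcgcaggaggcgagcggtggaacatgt

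Ccng1, Bax and Aen each held 1 match, shown in the 40 bases around it (chr11:40755447-40755486 and chr7:45467075-45467114 on the minus strand, chr7:78895922-78895961 on the plus strand).
Ccng1: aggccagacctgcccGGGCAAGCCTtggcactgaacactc
Bax: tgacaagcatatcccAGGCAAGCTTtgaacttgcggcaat
Aen: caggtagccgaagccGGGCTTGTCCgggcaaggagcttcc
The windows of Bbc3 and Eda2r held no match. A match describes these letters and no binding was measured here, and response elements can lie outside such a window.

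The matrices held 51653956 to 87703837 gene UMIs. After filtering, 4987 cells of tumor control, 7343 of tumor IR, 9115 of blood control and 8836 of blood IR were given a hashtag label, with a median of 2867.5 to 7341 UMIs per cell by library. Against the monocytic gate, 6176 of the 8709 myeloid cells of blood control and 6547 of the 8641 of blood IR carried the markers of neutrophils. The deletion check came before the targets. Ythdf2 UMIs in myeloid cells went against the label: the UMIs of the gene in 1000000 gene UMIs of a group (CPM) from WT to cKO were 58.8 and 523 in tumor control, 54.3 and 360.1 in tumor IR, 33.8 and 306 in blood control, and 34.5 and 337 in blood IR. Tags at the 3′ end outside a deleted exon do not check the deletion. Lyz2 was lower under the cKO label in all 4 libraries, from 8325 to 162 CPM in tumor control and from 14427 to 148 in blood control. Groups are therefore named by label below. The 2 tumor matrices shared barcodes: 7325 of the 7327 tumor control barcodes that lacked hashtags had them in the IR matrix, and 4955 of the 4958 such tumor IR barcodes had them in the control matrix. Only cells with hashtags of their own library were used. Leaving out the 39 barcodes kept in both libraries moved no summed value of the list past its interval. That step removed too few cells to move the sums much. It does not address mixing of transcripts between the 2 matrices, which was not tested. Of the 2703 tumor control cells labelled WT, 1618 had under a 4-fold margin between the hashtags, as had 799 of the 3367 in tumor IR.

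In the irradiated tumors, the myeloid cells held more Cdkn1a, Mdm2, Ccng1 and Bax transcripts than those of untreated tumors under both labels, by less than 2-fold. Cdkn1a stood at 1070.0 CPM in tumor control and 1530.3 in tumor IR under the WT label (log2 ratio 0.52, interval 0.49 to 0.54). Under the cKO label it stood at 1139 and 1549 (0.44, 0.42 to 0.47). Both irradiated groups were above both untreated ones. Mdm2 was 130.0 and 173 CPM in the cells labelled WT (0.41, 0.34 to 0.49) and 139 and 172 in those labelled cKO (0.31, 0.23 to 0.38), again higher in both irradiated groups. Ccng1 was 35.8 and 41.0 CPM (0.19, 0.04 to 0.34) and, under the cKO label, 35.1 and 48.9 (0.48, 0.34 to 0.62). With WT called only at a 4-fold hashtag margin, the Ccng1 ratio of the WT label turned to -0.02. Of these 4 genes Bax differed least, at 227 and 241 CPM (0.09, 0.03 to 0.15) and at 216 and 245 (0.18, 0.12 to 0.24).

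Empty droplets, which hold free RNA only, carried 807 CPM of Cdkn1a in tumor control and 949.7 in tumor IR. The empty droplets thus moved the same way as the cells, and the part of their RNA in the cell values was not tested.

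**Figure D1:**
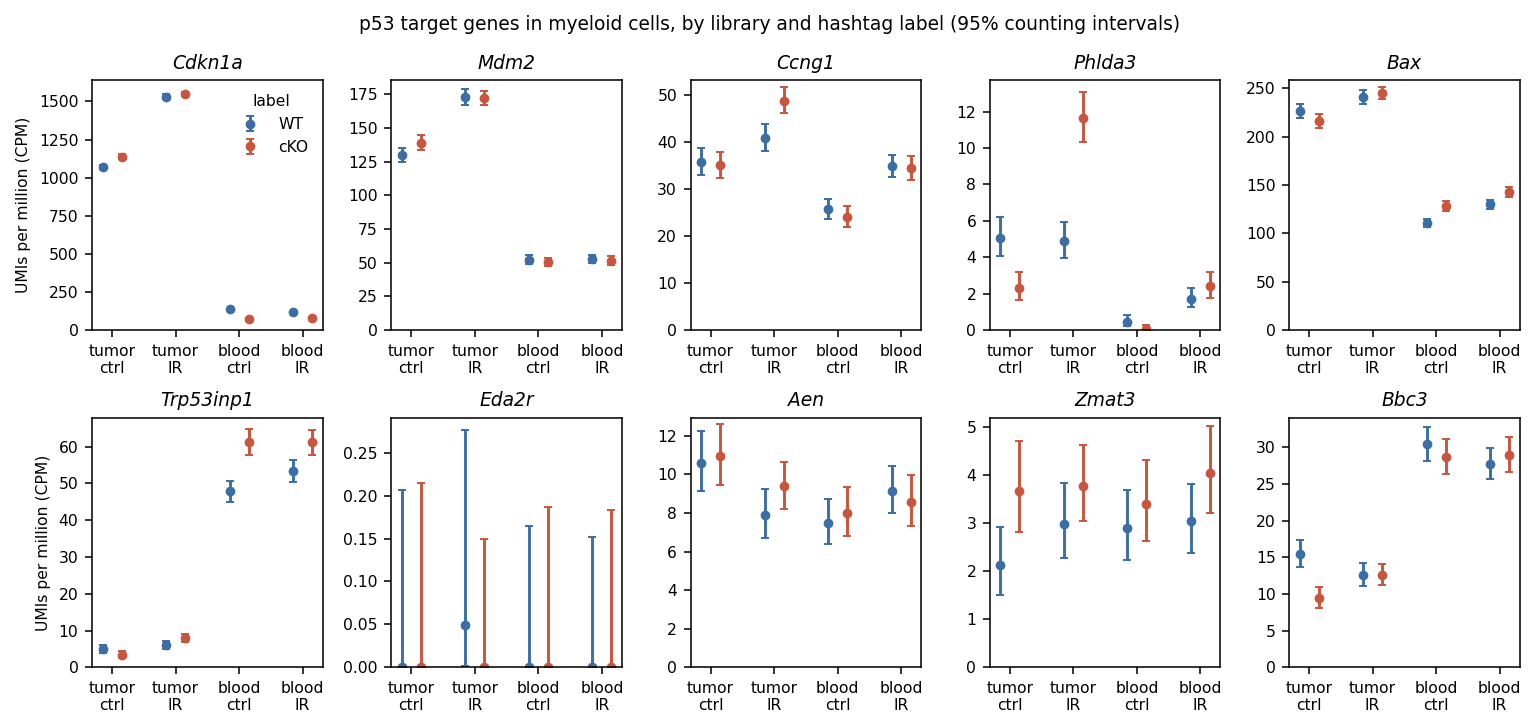
CPM of each p53 target in myeloid cells of the 4 libraries, by hashtag label, on linear axes that start at 0 and differ between genes. Points are pools and bars exact Poisson 95% intervals of counting error. Cdkn1a ran from 1070.0 to 1549 CPM in tumor, and Trp53inp1 and Bbc3 were higher in blood than in tumor.

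Phlda3 differed most of the list under the cKO label. In cells labelled cKO it had 40 UMIs in tumor control and 287 in tumor IR, 2.33 and 11.6 CPM, which gave a log2 ratio of 2.30 (1.84 to 2.84). In cells labelled WT it had 90 and 98 UMIs, 5.05 and 4.87 CPM, with no difference beyond counting error (-0.05, -0.48 to 0.38). The untreated values of both labels rested on few cells. For WT, 56 of the 90 Phlda3 UMIs lay in 6 cells with 5 or more each, and 46.4% of the 28 cells with Phlda3 also held a UMI of the 3 matrix genes Col3a1, Dcn or Sparc, against 3.66% of the other cells. For cKO, 23 of the 40 UMIs lay in 3 such cells, and 29.4% of the 17 cells with Phlda3 held a matrix gene UMI, against 5.25% of the others. In tumor IR this share was 8.06% (WT) and 3.25% (cKO), against 2.69% and 3.01% of the cells without Phlda3. Within the myeloid clusters that could be named, Phlda3 was 1.85 CPM in control and 5.50 in IR under the WT label, and 0.867 and 13.4 under the cKO label. Over these named clusters the WT ratio was 1.53, and without the 6% of cells with most UMIs it was 1.60.

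Trp53inp1 was 4.99 and 6.01 CPM in cells labelled WT (0.27, -0.14 to 0.68) and 3.49 and 7.99 in cells labelled cKO (1.18, 0.77 to 1.64), on 60 and 197 UMIs. Bbc3 differed in direction between the labels, at 15.4 and 12.5 CPM for WT (-0.30, -0.55 to -0.05) and 9.43 and 12.6 for cKO (0.42, 0.14 to 0.70). The WT value of Bbc3 turned to 0.19 within the named clusters. Aen was 10.6 and 7.90 CPM for WT (-0.42, -0.74 to -0.11) and 10.9 and 9.37 for cKO (-0.22, -0.51 to 0.06). Among the pro-apoptotic genes, Bax was thus higher under both labels, as were Cdkn1a and Mdm2. Bbc3 had no single direction, and Aen was lower beyond counting error under the WT label only. Zmat3 had too few UMIs under the WT label (38 and 60) and stood at 3.67 and 3.77 CPM under the cKO label. Eda2r had 1 UMI in all irradiated tumor myeloid cells and 0 in the untreated ones.

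As a count, 8 of the 10 genes reached 100 UMIs over both groups of the WT label and none differed by 2-fold, where 2.76% of all 9297 counted genes were higher and 2.85% lower by at least 2-fold. Of the 9 counted under the cKO label, Phlda3 and Trp53inp1 were higher by at least 2-fold and none was lower, where 4.22% and 6.6% of 9596 genes were. The median log2 ratio of the counted members was 0.14 (WT) and 0.42 (cKO), beside -0.10 and -0.06 over all counted genes. The 10 genes summed were 1501 and 2019.8 CPM in cells labelled WT (0.43, 0.41 to 0.45) and 1559 and 2060.3 in cells labelled cKO (0.40, 0.38 to 0.42), and Cdkn1a made most of these sums. Scaling with the TMM factors of edgeR moved the median of all genes from -0.10 to 0.03 (WT) and from -0.06 to 0.04 (cKO).

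**Figure D2:**
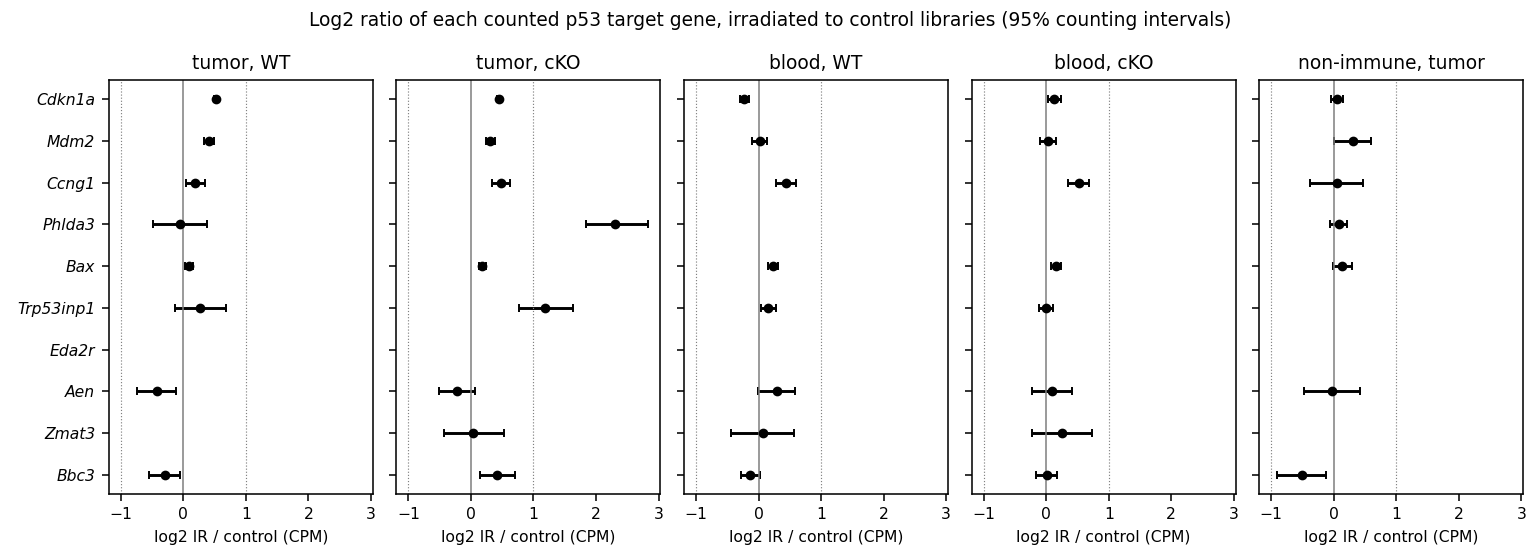
Log2 ratio of IR to control for each p53 target with at least 100 UMIs, in myeloid cells of tumor and blood by hashtag label and in non-immune tumor cells (described further on), with 95% intervals of counting error; the solid line marks equal levels and the dotted lines 2-fold. Cdkn1a and Mdm2 lay above 0 in tumor for both labels, and Ccng1 and Bax lay above 0 in both tissues.

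The composition of the sorted tumor cells differed between the 2 libraries, so the values were also taken within clusters. Cells can still differ within a cluster. In a finer clustering (resolution 1.2), a macrophage-like cluster led by Nos2 had 431 cells in tumor control and 1882 in tumor IR. Another led by Dcstamp had 934 and 445, and a cycling one with Mki67 had 202 and 14. The part of such shifts in the values within clusters was not tested. Macrophage-like cells of cluster 10, led by Folr2, Mrc1 and C1q genes, were 731 in tumor control and 135 in tumor IR, while interferon-rich monocyte-like cells of cluster 9 were 36 and 973. In cluster 10 Cdkn1a was 857 CPM in control and 1447 in IR for the WT label (0.76, 0.61 to 0.90) and 933 and 2278 for the cKO label (1.29, 1.21 to 1.36). Ccng1 was 39.4 and 134 CPM in the cKO cells of that cluster (1.76, 1.43 to 2.09), and Trp53inp1 5.35 and 36.9 (2.72, 2.04 to 3.53). Phlda3 was 3.77 and 32.0 CPM there for WT, on 9 and 10 UMIs, and 1.30 and 66.9 for cKO, on 8 and 58 UMIs. The irradiated cells of this cluster were few, 32 (WT) and 103 (cKO) after IR.

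In cluster 2, the Spp1 and Arg1 macrophage-like cells that made the largest tumor cluster, the ratios of Cdkn1a were smaller than in cluster 10. Cdkn1a was 1207 and 1533 CPM for WT (0.35, 0.31 to 0.38) and 1238 and 1562 for cKO (0.34, 0.30 to 0.37), and Mdm2 was higher by 0.53 and 0.52 on the log2 scale, beside 1.15 and 0.43 in cluster 10. Phlda3 was 1.40 and 5.64 CPM for WT (1.92, 1.01 to 3.17) and 0.590 and 9.22 for cKO (3.74, 2.57 to 5.87). Cluster 4, unnamed and led by Cxcl10, went the other way in part: Cdkn1a was 1108 and 1326 CPM for WT but 1571 and 1251 for cKO (-0.33, -0.39 to -0.27).

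Over the 12 comparisons of a tumor cluster and label with at least 50 cells in both groups, the NK cell-like cluster left out, Cdkn1a, Ccng1, Phlda3 and Bax were each higher in IR in 11. Of 10224 genes, 6.06% were higher in at least 11 of these 12. Trp53inp1 was higher in 10, Zmat3 in 8, Mdm2 in 7, and Aen and Bbc3 in 6. The share of all genes at these lower counts was not computed. A direction was counted whether or not its interval included 0. Phlda3 had few UMIs in cluster 4, 2 and 3 for WT and 1 and 3 for cKO. In cluster 8 it had 0 and 1 for WT and 0 and 6 for cKO. All 4 of these intervals included 0. So did those of Bax for WT in clusters 4 (0.03) and 8 (0.06). For Phlda3 the exception was cluster 16, unnamed, under the cKO label, with 97.6 CPM in control and 77.1 in IR (-0.33, -1.26 to 0.56). Its WT cells, 47 in control, fell below the limit of 50 and held 139 and 26.7 CPM (-2.25, -4.05 to -1.08). This cluster held 66 of the 90 untreated WT Phlda3 UMIs and 26 of the 40 cKO ones. The clusters came from the same 2 libraries and are not replicates.

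By cell class, the macrophage-like cells together held 1119 and 1530.0 CPM of Cdkn1a (WT) and 1093 and 1612 (cKO), and Phlda3 at 1.99 and 6.60 (19 and 57 UMIs) and at 0.927 and 13.2 (12 and 165 UMIs). Dendritic cell-like cells showed the same genes. Their Cdkn1a was 722 and 1278 CPM for WT (0.82, 0.71 to 0.94) and 819.8 and 1489 for cKO (0.86, 0.73 to 0.99). Their Phlda3 was 1.31 and 12.4 CPM for WT on 2 and 15 UMIs, and for cKO 0 UMIs in control and 64 in IR, at least 9.90-fold higher when control is set to a floor of 3 UMIs. Natural killer (NK) cell-like cells carried less Cdkn1a, 182 and 399 CPM for WT (1.12, 0.74 to 1.51) and 165 and 313 for cKO (0.92, 0.51 to 1.35). Neutrophil-like cells, hardly present in untreated tumors, carried the most Cdkn1a after IR, 3267 CPM in 317 cells (WT) and 2775 in 237 cells (cKO); the 26 untreated cKO cells held 2313.

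**Figure D3:**
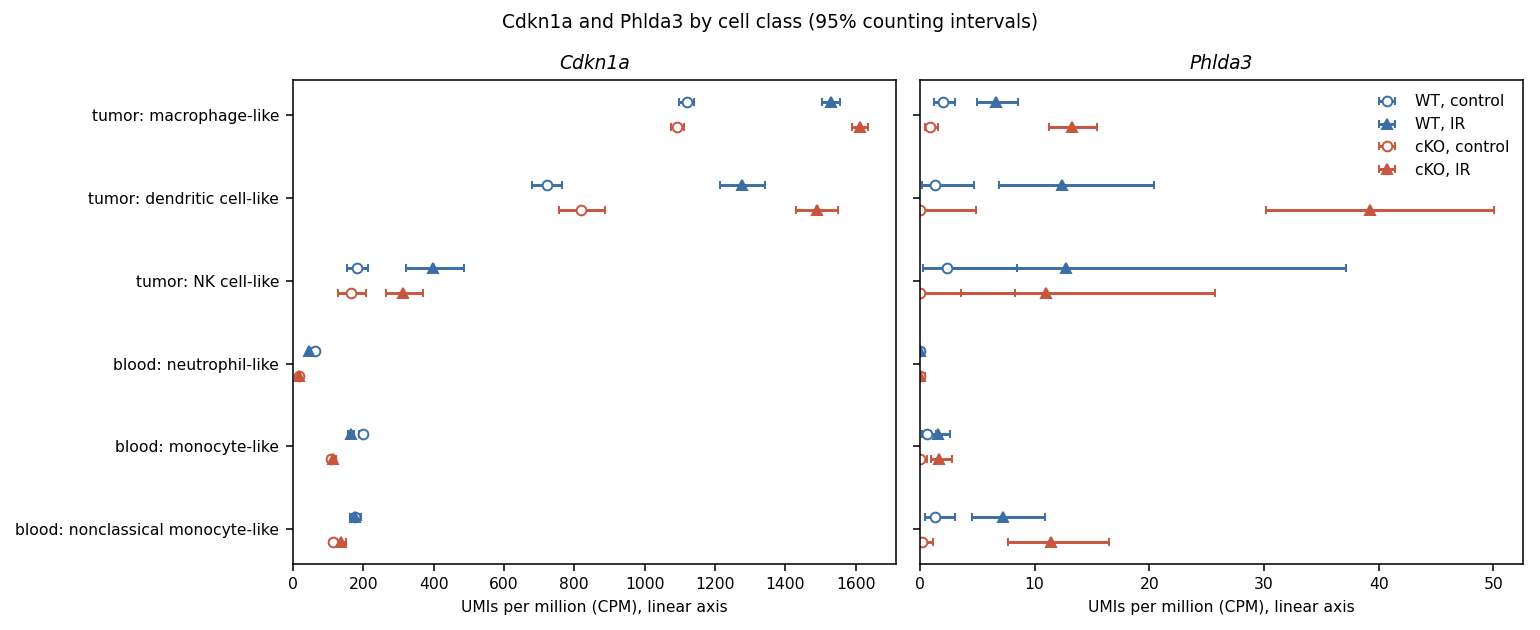
Level of Cdkn1a and Phlda3 by marker-defined cell class, library and label, in CPM (linear axis), with exact Poisson 95% intervals. Phlda3 of tumor macrophage-like cells stood at 0.927 to 1.99 CPM in control and at 6.60 to 13.2 in IR.

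Phlda3 was carried by a minority of cells. Of the macrophage-like cells, 1.11% (WT, interval 0.553 to 1.97) and 0.940% (cKO, 0.470 to 1.68) had a Phlda3 UMI in tumor control, and 3.62% (2.56 to 4.96) and 6.28% (5.11 to 7.63) in tumor IR. Thinned to 1000 UMIs per cell, the expected shares were 0.198%, 0.111%, 0.580% and 1.24%, in the same order. The irradiated cells were the shallower ones, with a median of 7621 and 7618 UMIs against 8747 and 10452.5. Of the dendritic cell-like cells 1.10% (WT) and 0 of 100 (cKO, which allows up to 3%) had one in control, and 3.97% and 12.6% in IR. Neutrophil-like cells of irradiated tumors, with a median of 1930 (WT) and 1849 (cKO) UMIs, had Phlda3 in 0 of 317 and 0 of 237 cells, which allows up to 0.946% and 1.27% of cells with a UMI. These cells were far shallower, so the limit is not one on cells expressing the gene. Empty droplets held 18.7 CPM of Phlda3 in tumor control and 16.4 in tumor IR, above the level of most myeloid groups. The 2 tumor matrices shared barcodes, as given above, and the part of the empty droplet RNA in the cell values was not tested.

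In blood, the myeloid cells of irradiated and untreated mice differed less. Summed over the list they held 413 and 429 CPM under the WT label (0.05, 0.01 to 0.09) and 376 and 413 under the cKO label (0.13, 0.09 to 0.18). Cdkn1a was lower after IR for WT, 136 and 116 CPM (-0.23, -0.30 to -0.15), and higher for cKO, 72.5 and 79.1 (0.13, 0.02 to 0.23). Mdm2 did not differ beyond counting error, at 52.3 and 52.9 CPM (0.02, -0.10 to 0.13) and 50.5 and 51.5 (0.03, -0.10 to 0.15).

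Ccng1 and Bax were higher in the blood of irradiated mice beyond counting error under both labels, as was the rarer Phlda3 described further on. Ccng1 was 25.7 and 34.9 CPM for WT (0.44, 0.29 to 0.60) and 24.1 and 34.5 for cKO (0.52, 0.35 to 0.69). Bax was 111 and 129.9 CPM for WT (0.23, 0.16 to 0.31) and 128 and 142 for cKO (0.15, 0.08 to 0.23). Trp53inp1 was 47.9 and 53.3 CPM (0.16, 0.04 to 0.27) and 61.2 and 61.1. Its WT ratio turned to -0.005 (-0.32 to 0.31) within monocyte and macrophage-like clusters. Aen was 7.49 and 9.16 CPM for WT (0.29, -0.01 to 0.59) and 7.99 and 8.56 for cKO (0.10, -0.22 to 0.42), Zmat3 2.90 and 3.04, and 3.39 and 4.03. Bbc3 was 30.4 and 27.8 CPM (-0.13, -0.29 to 0.02) and 28.7 and 28.9.

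Of 8 counted members, none differed by 2-fold under either label, where 0.446% of genes were higher and 0.373% lower for WT, and 0.402% and 0.93% for cKO. Their median log2 ratio was 0.11 under both labels, beside 0.05 and 0.07 over all genes.

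Blood neutrophil-like cells held less Ccng1 and Bax than monocyte-like cells and showed the larger ratios. In this class Ccng1 was 15.9 CPM in control and 29.5 in IR for WT (0.89, 0.60 to 1.19) and 12.8 and 27.9 for cKO (1.11, 0.78 to 1.48). Bax was 26.9 and 39.5 CPM (0.56, 0.32 to 0.79) and 22.1 and 40.9 (0.89, 0.62 to 1.16). Bbc3 was 16.1 and 18.5 CPM for WT (0.19, -0.12 to 0.52) and 12.7 and 23.6 for cKO (0.89, 0.54 to 1.26). Cdkn1a was lower, 63.3 and 45.9 CPM for WT (-0.46, -0.64 to -0.29), and 18.6 and 16.7 for cKO (-0.15, -0.50 to 0.20). Blood empty droplets held 103 CPM of Cdkn1a in control and 91.8 in IR, which was above the level in these cells.

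The shares of the neutrophil-like clusters also differed between the libraries, cluster 5 holding 639 cells in control and 1654 in IR. At resolution 1.2 a neutrophil-like cluster led by Stfa2l1 had 1592 blood cells in control and 688 in IR, and another led by Retnlg 591 and 1537. The part of such shifts was not tested. Within the 4 largest neutrophil-like clusters and both labels, Ccng1, Bax, Trp53inp1 and Bbc3 were higher in IR in 8 of 8 comparisons, as were 4.46% of 7443 genes. Their log2 ratios ran from 0.43 to 1.92 for Ccng1, 0.39 to 0.91 for Bax, 0.01 to 0.25 for Trp53inp1 and 0.09 to 1.14 for Bbc3. Cdkn1a was lower in 7 of the 8, with intervals that included 0 in some and not in others. The share of all genes lower that often was not computed. Over the 13 blood comparisons of a cluster and label with at least 50 cells in both groups, again without the NK cell-like cluster, Ccng1 (0.22 to 1.92, median 0.76) and Bax (0.03 to 0.91, median 0.49) were higher in every one, and 0.707% of 10463 genes were. These comparisons rest on the same 2 libraries and are not replicates.

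**Figure D4:**
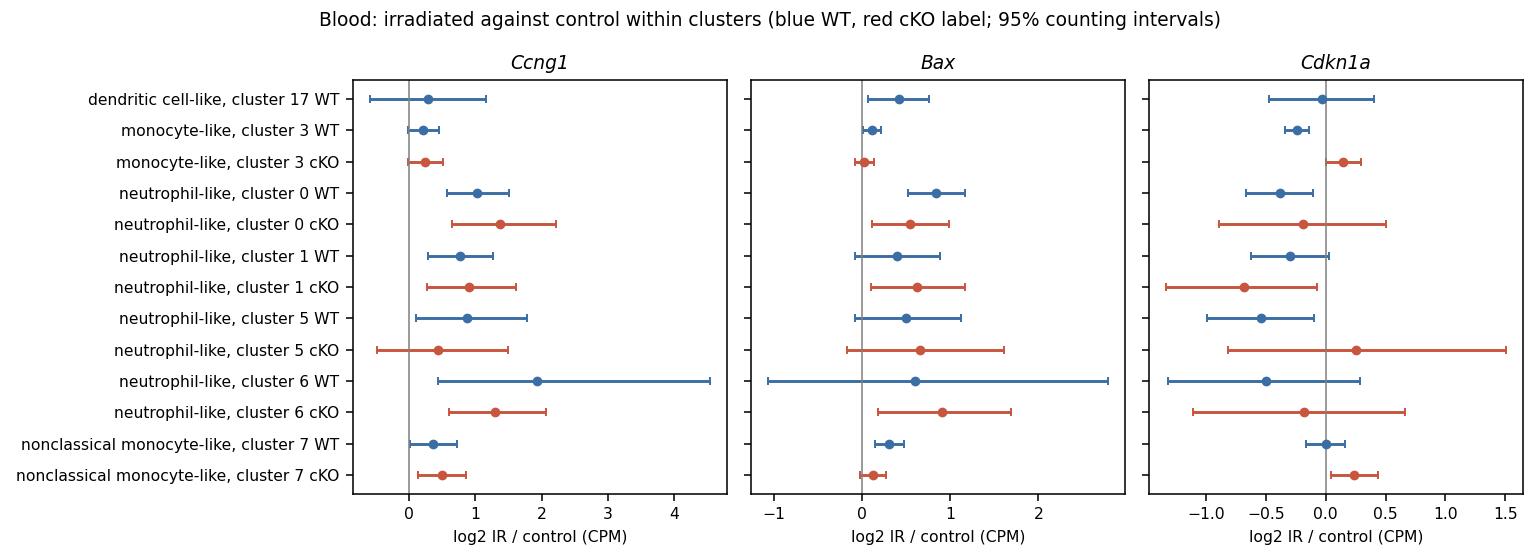
Log2 ratio of IR to control for Ccng1, Bax and Cdkn1a within blood clusters with at least 50 cells per group, without the NK cell-like cluster, by hashtag label, with 95% intervals of counting error. Ccng1 and Bax lay above 0 in all 13 comparisons, while Cdkn1a lay below 0 in 10. The share of all genes below 0 that often was not computed.

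Phlda3 was rare in blood but was higher after IR in monocytes. Myeloid cells held 10 and 42 Phlda3 UMIs for WT (0.446 and 1.72 CPM) and 1 and 48 for cKO (0.0506 and 2.39 CPM). Most lay in nonclassical and classical monocytes. Nonclassical monocyte-like cells, the patrolling type, had 5 and 22 UMIs for WT, with a UMI in 1.01% of 398 and 4.80% of 250 cells. For cKO they had 1 and 29 UMIs, in 0.195% of 513 and 6.05% of 215 cells. In monocyte-like cells Phlda3 had 5 and 17 UMIs for WT and 0 and 16 for cKO, at least 3.55-fold higher against the floor of 3 UMIs. Neutrophil-like cells of blood had 0 Phlda3 UMIs in 3464, 2712, 3617 and 2930 cells, which allows a UMI in at most 0.111% of cells in any of the 4 groups and does not limit the cells expressing the gene. These cells had a median of 2457.5 to 2598.5 UMIs and the nonclassical ones 9119 to 11746.5, deeper in IR than in control. Empty droplets of blood held 0.690 CPM of Phlda3 in control and 4.89 in IR, so they moved with the cells, and the part of their RNA was not tested.

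In nonclassical monocyte-like cells Ccng1 was 34.8 and 45.0 CPM for WT (0.37, 0.02 to 0.73) and 32.4 and 45.8 for cKO (0.50, 0.14 to 0.85). Cdkn1a of these cells was 178 CPM in both WT groups and 115 and 136 in the cKO groups. In monocyte-like cells Cdkn1a was 198 and 164 CPM for WT (-0.27, -0.37 to -0.17) and 107 and 114 for cKO (0.09, -0.05 to 0.24).

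Between the labels, Cdkn1a in blood stood out. It was 136 CPM in cells labelled WT and 72.5 in those labelled cKO in blood control (-0.90, -0.99 to -0.81), and 116 and 79.1 in blood IR (-0.55, -0.64 to -0.46). The difference was present in each main blood class, and the WT and cKO cells of a tissue and treatment shared 1 library. In control it was 63.3 and 18.6 CPM in neutrophil-like cells (-1.76, -2.04 to -1.51), 198 and 107 in monocyte-like cells (-0.89, -1.02 to -0.75) and 178 and 115 in nonclassical monocyte-like cells (-0.63, -0.79 to -0.47). In IR the log2 ratios of these classes were -1.45, -0.52 and -0.39. In tumor the labels differed little in Cdkn1a, by 0.09 (0.06 to 0.12) in control and 0.02 (-0.00 to 0.04) in IR. The control value turned to -0.05 (-0.08 to -0.01) within monocyte and macrophage-like clusters.

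Phlda3 was lower under the cKO label in tumor control, 2.33 against 5.05 CPM (-1.10, -1.69 to -0.56), and higher in tumor IR, 11.6 against 4.87 CPM (1.25, 0.92 to 1.60). The control value fell to -0.11 on the log2 scale with WT called only at a 4-fold hashtag margin, and it includes the 6 cells rich in Phlda3 given above. In tumor IR the ratio was 0.99 (0.56 to 1.47) in macrophage-like cells and 1.61 (0.84 to 2.58) in dendritic cell-like cells. Bbc3 was 15.4 and 9.43 CPM in tumor control (-0.71) and Trp53inp1 47.9 and 61.2 in blood control (0.36, 0.24 to 0.48). Ccng1 was 41.0 and 48.9 CPM in tumor IR (0.26, 0.13 to 0.39).

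Of 9 counted members in tumor control none was higher and Phlda3 was lower by 2-fold, where 1.93% and 0.784% of genes were. Of 9 in tumor IR Phlda3 was higher and none lower, where 0.127% and 0.0848% were. In blood control 0 of 8 passed in either direction, where 0.748% and 0.537% of genes did, and in blood IR 0 of 8, where 0.125% and 0.333% did. The summed list differed by 0.05 and 0.03 in tumor control and IR and by -0.13 and -0.06 in blood.

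Untreated tumor and blood myeloid cells, from libraries made separately, differed far more than irradiated and untreated cells did. Cdkn1a was 136 CPM in blood and 1070.0 in tumor under the WT label (2.98, 2.93 to 3.04) and 72.5 and 1139 under the cKO label (3.97, 3.90 to 4.05). Mdm2 was 52.3 and 130.0 CPM (1.31) and 50.5 and 139 (1.46). Trp53inp1 went the other way, 47.9 in blood and 4.99 in tumor for WT (-3.25, -3.59 to -2.95) and 61.2 and 3.49 for cKO (-4.11, -4.53 to -3.76), and Bbc3 was lower in tumor by -0.98 and -1.60.

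Of 9 counted members for WT, 4 were higher by 2-fold in tumor (Cdkn1a, Mdm2, Phlda3 and Bax) and 1 lower (Trp53inp1), where 16.1% and 16.9% of genes were. Of 8 for cKO, 2 were higher (Cdkn1a, Mdm2) and 2 lower (Trp53inp1, Bbc3), where 18% and 18.2% were. The 2 sorts held different cells, mostly neutrophil-like in blood and macrophage-like or unnamed in tumor, and cell type and tissue cannot be told apart here.

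Cells of the tumor libraries with almost no immune transcripts were set against the myeloid cells. They were defined by Tyrobp, Fcer1g, Laptm5 and Coro1a making under 0.1% of their UMIs, and numbered 433 in tumor control and 205 in tumor IR, against 4281 and 6931 myeloid cells. In all, 171 and 202 cells lay near the limit, from 0.05% to 0.2%. They were called non-immune cells, and whether they were carcinoma or stroma was not settled. Krt8 and Krt18, markers of epithelium, had 0 UMIs, and 2 and 4 of the 7 epithelial genes had any. The 7 fibroblast genes summed to 2359 CPM in control (all 7 with UMIs) and 2308 in IR (6 of 7, Lum at 0), against 40.2 and 8.15 in myeloid cells. They made 0.1% of UMIs or more in 225 of the 433 control cells and in 75 of the 205 IR cells. A CD45+ sort should leave such cells out, and their Ptprc (CD45) was 7.9 to 30 CPM by group against 420 to 649 in myeloid cells.

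Phlda3 was far higher in these cells than in myeloid cells. In tumor control it was 150.0 CPM in non-immune and 3.71 in myeloid cells (5.32, 5.08 to 5.60), and in tumor IR 158 and 8.60 (4.20, 4.01 to 4.39). Cdkn1a was lower, 311 against 1104 CPM in control (-1.83, -1.88 to -1.77) and 323 against 1540.5 in IR (-2.25, -2.34 to -2.17). Mdm2 was lower as well, 32.0 against 135 CPM (-2.07) and 39.5 against 173 (-2.13), and so was Ccng1, 18.1 against 35.5 (-0.97) and 18.7 against 45.3 (-1.27). Bax was 129 against 221 CPM and 142 against 243. Bbc3 was 27.4 against 12.5 CPM in control (1.13, 0.92 to 1.35) and 19.3 against 12.6 in IR (0.62, 0.23 to 0.98). With TMM factors Bbc3 was 0.64 in control and -0.09 in IR, and Ccng1 and Bax were lower by over 2-fold in control (-1.46 and -1.27).

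Eda2r, the rarest member, had 5 UMIs in the non-immune cells of each library, and 0 and 1 in the far larger myeloid samples. Trp53 itself was higher in the non-immune cells, 196 against 41.6 CPM in control (2.23) and 206 against 27.8 in IR (2.89).

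Of 9 counted members in tumor control, 2 were higher by 2-fold (Phlda3, Bbc3) and 3 lower (Cdkn1a, Mdm2, Trp53inp1), where 29.3% and 19.9% of genes were. In tumor IR 1 was higher (Phlda3) and 3 lower (Cdkn1a, Mdm2, Ccng1), where 30.1% and 21.5% were. The members' median was -0.78 and -0.73, beside 0.33 and 0.31 over all genes, and with TMM factors the median of all genes was -0.16 and -0.39.

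Between tumor control and tumor IR the intervals for Cdkn1a and Phlda3 in non-immune cells included 0. Cdkn1a was 311 and 323 CPM (0.05, -0.05 to 0.15), Phlda3 150.0 and 158 (0.08, -0.06 to 0.22) and Bax 129 and 142 (0.14, -0.01 to 0.29). Mdm2 was 32.0 and 39.5 CPM (0.30, 0.01 to 0.59), and -0.02 on the log2 scale in those cells with the fibroblast list at 0.1% of UMIs or more. Bbc3 was lower, 27.4 and 19.3 CPM (-0.50, -0.91 to -0.12). Trp53inp1 had 14 and 15 UMIs and Eda2r 5 in each library. None of the 7 counted members differed by 2-fold, where 2.88% of genes were higher and 0.255% lower. The list summed to 692 and 729.7 CPM (0.08, 0.01 to 0.14), with -0.09 for the WT and 0.25 for the cKO label. With a limit of 0.2% for non-immune cells the summed ratio was 0.35 (0.29 to 0.41) and that of Cdkn1a 0.49 (0.41 to 0.57). Whether the ratio differed from that of myeloid cells was not tested. Markers of other cells moved with the libraries, the 8 neutrophil genes summing to 5.91 CPM in control and 219.8 in IR and the 10 dendritic cell genes to 196 and 436, and their part was not tested. The median depth of these cells was 24578 UMIs in control and 3915 in IR, and cells above 10000 UMIs gave 97.5% and 92.8% of the UMIs.

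**Figure D5:**
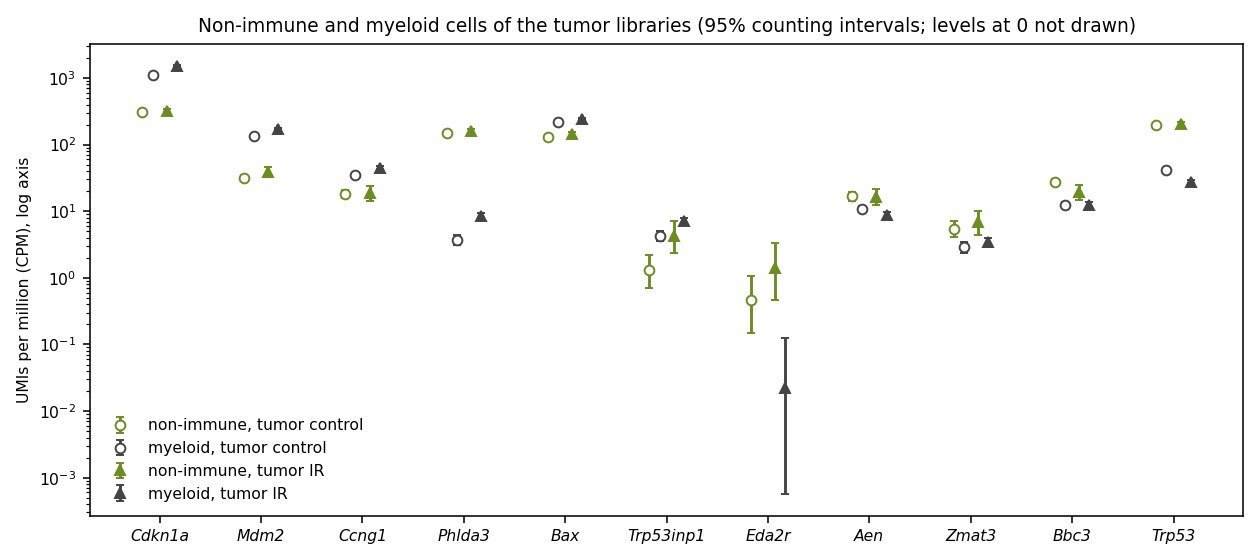
CPM of each p53 target and Trp53 in non-immune and myeloid cells of the tumor libraries, both labels together (log axis), with exact Poisson 95% intervals. Phlda3 was 150.0 and 158 CPM in non-immune cells against 3.71 and 8.60 in myeloid cells, and Cdkn1a lay lower in non-immune cells.

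The wider pathway was read from 26 other p53 targets, 10 regulators of p53 and 8 proliferation genes. In tumor myeloid cells, of 21 counted other targets Pml alone was higher by 2-fold in IR under both labels (2.76% and 4.22% of all genes), 12.8 and 34.3 CPM (1.41) and 7.92 and 32.9 (2.05). Pml, a nuclear body protein, is also induced by interferon. Sesn1, a stress regulator of TOR, was lower for WT, 5.16 and 2.54 CPM (-1.01). In blood 0 of 21 (WT) and 0 of 20 (cKO) differed by 2-fold, near the share of all genes given above. In non-immune cells 2 of 20 were higher (2.88% of all genes), the death receptor Fas, 6.18 and 23.3 CPM (1.89), and Dram1, a lysosomal protein, 10.2 and 23.8 (1.21).

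Of the regulators, Trp53 was lower in irradiated tumor myeloid cells, 36.8 and 27.0 CPM for WT (-0.44, -0.61 to -0.28) and 46.6 and 28.4 for cKO (-0.72, -0.87 to -0.57). In blood it was 33.1 and 32.4 CPM, and 34.0 and 34.7. Mdm4, the partner of Mdm2, was 22.4 and 23.7 CPM in tumor for WT and 19.7 and 27.6 for cKO (0.48, 0.30 to 0.68). Of 8 counted regulators under the cKO label in tumor, the damage kinases Atm (-1.08) and Chek2 (-1.20) were lower by 2-fold, where 6.6% of all genes were, and of 7 counted under the WT label none was.

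Of the 8 proliferation genes, 4 of 5 counted for WT and 7 of 7 counted for cKO were lower by 2-fold in irradiated tumor myeloid cells, where 2.85% and 6.6% of all genes were. Mki67 was 22.0 and 8.20 CPM (-1.42) and 77.2 and 5.36 (-3.84), and Birc5, the survivin gene, was lower by -2.16 and -5.00. In blood Mki67 and Birc5 were higher by 2-fold, 2 of 4 counted (WT) and 2 of 2 (cKO), where 0.446% and 0.402% of all genes were, with Mki67 at 2.63 and 7.14 CPM (1.43) and at 3.49 and 10.7 (1.60). The monocyte-like cycling cells of cluster 18 numbered 6 in blood control and 167 in blood IR.

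Between non-immune and myeloid cells of tumor control, of 23 counted other targets 4 were higher and 7 lower by 2-fold (29.3% and 19.9% of all genes). The death receptor Tnfrsf10b (4.12) and the mitotic gene Ckap2 (3.78) were higher, and the cytokine gene Gdf15 was 118 against 11.3 CPM (3.39). Dcxr (-3.29) and Plk3 (-2.23) were lower. Between the labels Plk3, a stress kinase, was lower under cKO in blood control, 249 and 103 CPM (-1.27), and Ckap2 was higher in tumor control (1.91). Between tumor and blood Gdf15 was higher in tumor (6.85 for WT, on 1 blood UMI) and the repair gene Xpc lower (-3.999 and -4.25).

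Summed over the list, the 41 classes and groups with at least 50 cells ran from 246 CPM in neutrophil-like cells of blood control labelled cKO (2712 cells) to 3622 in neutrophil-like cells of tumor IR labelled WT (317 cells). Every blood class lay between 246 and 587 CPM. Above the non-immune and NK cell-like groups, tumor dendritic cell-like cells stood at 1041 and 1162 CPM in control and 1667 and 1946 in IR, and tumor macrophage-like cells at 1568 and 1519, and 2093 and 2175. Over these 41 groups genes whose log2 level went closely with the summed list were Fth1 (Pearson r 0.843), B2m (0.80), H3f3b (0.798) and Actg1 (0.699), among 137 genes with at least 100 UMIs in each. The groups share libraries, and the list is mostly Cdkn1a, so this is a description only.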

How the data were processed

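The deposited files are raw UMI count matrices of all barcodes, which the authors made from 10x 3′ v3.1 libraries with Cell Ranger (6.0.1 in the methods, major version 4 in the file headers) on mm10 with GENCODE vM23. The authors analysed them with Seurat 4.0.6. The 8 samples are the transcript and hashtag libraries of 4 matrices. Cells with at least 500 UMIs, 200 genes, at most 25% mitochondrial UMIs and 20 hashtag UMIs were kept. Cells were labelled WT where hashtag B0301 was at least B0302, and cKO where B0302 was at least 4 times B0301, and the rest (401 to 507 per library) were left out. No doublet caller was run. Cells between the labels were dropped only where B0302 was above B0301. Those with B0301 at least B0302 stayed in the WT label whatever their margin. In tumor, 1618 of 2703 control and 799 of 3367 IR cells labelled WT had under a 4-fold margin. Cells were clustered with Seurat 5.3.0 in R 4.3.3 (2000 variable genes, 40 components, resolution 0.8) and named from marker lists. UMIs were summed per library, label and class in Python 3.11.15 and given as CPM. Log2 ratios had 1 UMI added, scaled for depth, with exact conditional binomial intervals in scipy 1.17.1. Genes with at least 100 UMIs over both groups were counted, and a difference of 2-fold was called. TMM factors came from edgeR 4.0.16. With 1 pool per group no p-value was computed. The script was tested on simulated data. All 10 members, Trp53 and Mdm4 were named in every main comparison, with up to 5 called genes of each other list, and the 5 genes most correlated with the summed list, of which 1 is not reported here. The promoter windows are RefSeq's on GRCm38.p6, and gene positions are GENCODE vM21 on GRCm38, the same assembly as mm10. The members and lists were chosen with earlier results of these data known.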

Additional observations from a re-analysis of the deposited data

Results flagged for a closer look

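Aen differed in direction between the tissues. Its log2 ratio of IR to control was -0.42 (WT) and -0.22 (cKO) in tumor myeloid cells, and 0.29 and 0.10 in blood myeloid cells. The difference was not tested, since each group was 1 pool.

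Cdkn1a differed in direction between the tissues when the labels were compared. The log2 ratio of cKO to WT was 0.0896 in tumor control, or -0.05 within monocyte and macrophage-like clusters, and 0.0173 in tumor IR. It was -0.90 in blood control and -0.55 in blood IR. The list summed went the same way, 0.0547 and 0.0286 in tumor and -0.135 and -0.0552 in blood. The difference was not tested.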

How the results depend on the processing

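The list summed is given as a log2 ratio. Clustering at resolution 1.2, at least 50 hashtag UMIs, at most 10% mitochondrial UMIs and, chosen after seeing the data, leaving out the barcodes kept in both tumor libraries moved none of the 11 summed values past its interval. Clusters enter these sums only to leave out lymphoid cells. The limit of 50 hashtag UMIs and the step that left out shared barcodes removed few cells. The resolution, that limit and that step could therefore hardly move the sums. IR against control in tumor, 0.43 (WT), became 0.55 with TMM factors, 0.50 in named clusters, 0.41 with order-of-magnitude cell calling, 0.18 without the top member and 0.39 without the 6% of cells with most UMIs; 0.40 (cKO) became 0.51, 0.53 (named), 0.52 (monocyte and macrophage-like clusters), 0.28 and 0.36. In blood, 0.05 (WT) turned to -0.0525 in monocyte-like clusters and became 0.17 without the top member, and 0.13 (cKO) became 0.0697 with TMM factors and 0.0381 in monocyte-like clusters. In non-immune cells, 0.08 became 0.0101 with TMM factors, 0.35 at a 0.2% limit, 0.16 without the top 6%, and turned to -0.0605 with the fibroblast list at 0.1%, a choice made after seeing the data. Non-immune against myeloid, -1.14 in control became -1.64 (TMM), -1.11 (0.2% limit), -0.16 (without the top member) and -1.07 (fibroblast list), and -1.48 in IR became -2.19, -1.56 (named), -1.54 (0.05% limit), -1.16, -0.30, -1.38 (without the top 6%) and -1.55. For cKO against WT, 0.05 in tumor control became 0.0289 at the hashtag margin and 0.0241 (TMM), and turned to -0.00386 (named), -0.0530 (monocyte and macrophage-like) and -0.0359 (without the top member). In tumor IR 0.03 became 0.0039 (margin), 0.0542 (monocyte and macrophage-like) and 0.0633 (without the top member) and turned to -0.0284 (TMM). In blood control -0.13 became -0.21 and -0.28, and in blood IR -0.06 became -0.11 (TMM), -0.12 and -0.15. The causes were not tested. Of 1390 values of single members under the alternatives, which include settings that hardly changed the cells, 1326 kept their sign. In 8 of the 64 others the reported interval excluded 0, and the turned value's own interval included 0 in all of these but Cdkn1a between the labels in tumor control (-0.05, -0.08 to -0.01).

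No paired analysis was possible because each group was 1 pool, with no replicate numbers to pair and no test to block. Depth limited Eda2r, Zmat3 and Phlda3 in blood, and the tumor control cells labelled WT were the least certain in label.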
